A study of Mus musculus with 7 samples.

Results

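The interferon-inducible GTPases analysed here are 10 genes of the guanylate-binding protein (GBP) and immunity-related GTPase (IRG) families, namely Gbp2, Gbp3, Gbp5, Gbp7, Gbp9, Igtp, Irgm1, Irgm2, Iigp1 and Ifi47. They were taken by gene symbol from the 40743 genes of the expression table, and all 10 were found once each. The samples were 7 RNA-seq libraries of retinal microglia (rMG) from mice labelled Irf8 KO, 3 from mice without laser (unlasered) and 4 from mice a week after laser photocoagulation, which induces choroidal neovascularisation (lasered). By the labels and methods all mice, unlasered ones included, were Irf8-/- and Cx3cr1 GFP/+ on a C57BL/6J background, and the GFP allele marked the cells for sorting. Each library was made from about 10000 CD45 low, CD11b+, GFP+, Ly6C- and Ly6G- cells, pooled from 3 to 4 mice. Of the lasered retinae, the central 70% was used, so that laser injury and the part of the retina taken cannot be told apart. The wild-type libraries of the study were not analysed here, so the question addressed is how these genes differed between lasered and unlasered retinae when all mice carried the Irf8 KO label.

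Totals were between 20427558 and 36022954 reads in the unlasered libraries and between 37133297 and 45919042 in the lasered ones, and levels are given as CPM, counts scaled to a total of 1000000 per library. Reads were still assigned to the targeted gene, with Irf8 at 489 to 529.9 CPM in the unlasered and at 463 to 582 CPM in the lasered libraries. Whether these reads come from the targeted exons cannot be read from totals per gene, so that "Irf8 KO" stands for the label throughout. Lasered library 4 stood apart from the other lasered libraries, as set out below, and results that rest on it are given with and without it. Whether the pools of one group came from separate experiments is not stated in the sources used here, and p-values measure the spread between these pools.

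GBPs and IRGs are large GTPases that most cells make little of until interferon, above all interferon gamma, induces them. They assemble on the membranes of vacuoles that hold parasites or bacteria, and GBPs also coat bacteria in the cytosol and promote caspase activation there. Within the IRG family, Irgm1, Irgm2 and Igtp (also known as Irgm3) are regulators that sit on the membranes of the cell itself and keep effectors such as Iigp1 (Irga6) and Ifi47 (Irgd) inactive. Induction runs through the gamma-activated site (GAS) in promoters and through the interferon-stimulated response element (ISRE), which interferon regulatory factors bind. IRF8 itself is known to bind DNA with PU.1 at composite ETS-IRF elements, which is why the letters of all 3 elements were looked up in the promoters.

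The RefSeq promoter table (GRCm38.p6), with windows from 250 bases before to 50 bases after a start site, held 8 of the 10 members. Gbp9 and Iigp1 were without an entry. Both strands were searched for TTCNNNGAA (GAS), for GAAA followed after any 2 bases by GAAA (core of the ISRE) and for GGAA followed after any 2 bases by GAAA (ETS-IRF composite), and matches may overlap. The stretches below carry the matches nearest to the start site and show how they are arranged. Capitals mark the matches, each line reads 5′ to 3′ on the strand of the gene, and an ISRE core on the other strand reads as TTTC, any 2 bases and TTTC. The stretches are Gbp2 at chr3:142620594-142620623 (+), Gbp3 at chr3:142559924-142560025 (+), Gbp5 at chr3:142496814-142496899 (+), Gbp7 at chr3:142530216-142530335 (+), Irgm1 at chr11:48871428-48871457 (-), Igtp at chr11:58199436-58199555 (+) and Irgm2 at chr11:58214857-58214976 (+). Those of Gbp2 and Irgm1 lie within an exon of another annotated transcript and are therefore kept to 30 bases, and the other stretches lie outside exons.
Gbp2: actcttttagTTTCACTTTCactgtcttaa
Gbp3: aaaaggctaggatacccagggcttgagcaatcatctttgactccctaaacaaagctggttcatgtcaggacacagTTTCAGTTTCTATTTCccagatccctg
Gbp5: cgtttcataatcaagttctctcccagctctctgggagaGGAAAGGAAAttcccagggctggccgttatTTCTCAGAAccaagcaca
Gbp7: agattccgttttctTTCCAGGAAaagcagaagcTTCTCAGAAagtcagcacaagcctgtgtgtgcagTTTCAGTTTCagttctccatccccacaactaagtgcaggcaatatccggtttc
Irgm1: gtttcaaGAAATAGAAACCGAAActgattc
Igtp: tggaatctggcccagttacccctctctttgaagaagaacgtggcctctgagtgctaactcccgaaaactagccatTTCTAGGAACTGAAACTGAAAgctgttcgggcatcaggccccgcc
Irgm2: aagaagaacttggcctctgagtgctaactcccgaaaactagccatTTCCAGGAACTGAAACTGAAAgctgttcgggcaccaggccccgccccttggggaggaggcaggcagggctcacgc

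An ISRE core match was present in 7 of the 8 members with a window, all but Ifi47, compared with 3.99% of 27025 genes with a window. GAS matches were found in Gbp5, Gbp7, Igtp and Irgm2, 4 of 8 members, compared with 9.55% of genes, and all 4 also held the ISRE core, a combination seen in 0.54% of genes. The ETS-IRF letters were found in Gbp5, Igtp and Irgm2, compared with 3.16% of genes. In Gbp3 and in Irgm1, 2 ISRE cores overlapped in one run that began 45 and 30 bases before the start site, respectively. Gbp7 held a pair of GAS matches, 106 and 87 bases before the start, followed by an ISRE core at 53 bases. Gbp5 held a GAS at 52 bases, the composite at 82 bases and, outside the printed stretch, an ISRE core at 165 and another GAS at 245 bases. In Igtp and Irgm2 the GAS, the composite and the ISRE core overlapped in a single run of 21 bases that differed at 1 position, T4C counted from the first base of the GAS in Igtp, and 87 of 90 aligned bases around it were identical (96.7%). Ifi47 had none of these letters in its window. These matches are descriptions of the reference sequence, and binding was not measured.

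**Figure D1:**
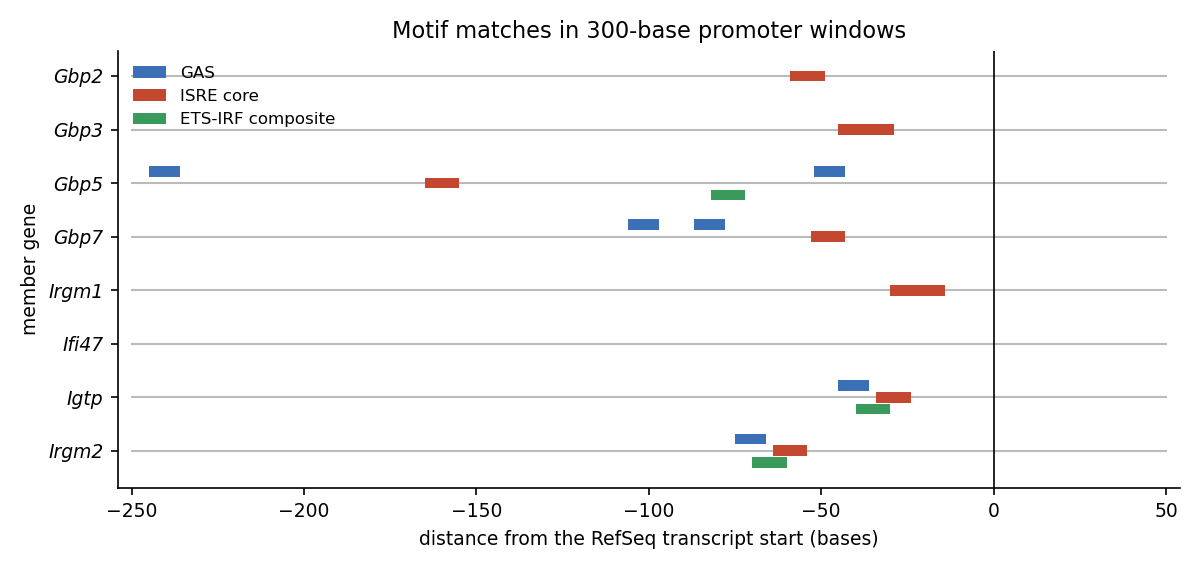
Matches to the GAS (blue), the ISRE core (red) and the ETS-IRF composite (green) in the 300-base RefSeq promoter windows of 8 members, plotted by distance from the transcript start in bases. Gbp2, Gbp3, Gbp7, Irgm1, Igtp and Irgm2 have an ISRE core within 64 bases of the start, the matches of Igtp and Irgm2 overlap in the same order, and Ifi47 has none.

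The genes lie on 4 chromosomes (GRCm38, GENCODE M21), and all are protein-coding. On chromosome 3, Gbp5 (142493978-142522344), Gbp7 (142530342-142550149), Gbp3 (142560026-142573209) and Gbp2 (142620602-142638008) follow each other on the plus strand. Gbp9 lies on the minus strand of chromosome 5 (105077630-105139539). Chromosome 11 carries Irgm1 (48861968-48871683, minus strand), Ifi47 (49076587-49096974, plus strand), Igtp (58199556-58207591, plus strand) and Irgm2 (58199618-58222782, plus strand), whereas Iigp1 is on chromosome 18 (60376027-60392634, plus strand). The exons of Igtp and Irgm2 overlap on the same strand, and part of the Igtp reads were listed jointly with Irgm2. The Gbp9 value consisted only of reads listed jointly with Gbp8 or Gbp4, and that of Ifi47 only of reads listed jointly with Olfr56, so that both are uncertain as values of a single gene. Exons of Gbp7 overlap Gm43802 on the same strand, and reads listed jointly with Gbp7 also stood under Gm43802. Exons of Gbp2 and of Ifi47 also overlap genes on the other strand (Mir6381 and Gm12188), and the library kits do not mark strand. Between 0.379% (Irgm1) and 12.7% (Gbp7) of the 50-base words of a member's transcripts also occurred in transcripts of other genes.

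All members were expressed in both groups, on between 122 reads (Gbp5 in unlasered library 1) and 12185 reads (Irgm1 in lasered library 1). Per kilobase of exon, the regulatory IRGs led among the members with reads listed for them alone. Igtp was the highest in the unlasered libraries, with 53.3 ± 7.87 CPM per kilobase (SD, n = 3), before Irgm2 with 33.8 ± 7.54 and Irgm1 with 30.9 ± 3.57, whose ranges overlapped. Gbp2 followed with 17.6 ± 2.50, Gbp7 with 13.6 ± 0.866 and Gbp3 with 5.50 ± 1.19 CPM per kilobase, each without overlap with its neighbours. Iigp1, at 1.84 ± 0.403, and Gbp5, at 1.75 ± 0.823 CPM per kilobase, were the lowest and overlapped each other. In the lasered libraries Igtp (60.7 ± 6.92 CPM per kilobase, SD, n = 4) was again first and Gbp5 (1.32 ± 0.465) last, and Irgm1 (42.8 ± 6.13) and Irgm2 (38.5 ± 9.41) overlapped. Gbp9 and Ifi47 were left out of this order because none of their reads were listed alone, and the level of Igtp includes reads shared with Irgm2. In the unlasered libraries Ifi47 (mean 91.9 CPM, 2473 exon bases) would otherwise come before Irgm2 (mean 125 CPM, 3690 exon bases). Mapping did not split reads across introns, and the IRGs in the order have 3 or 4 exon blocks, compared with 11 to 14 for the GBPs. The effect of this on the order was not tested.

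**Figure D2:**
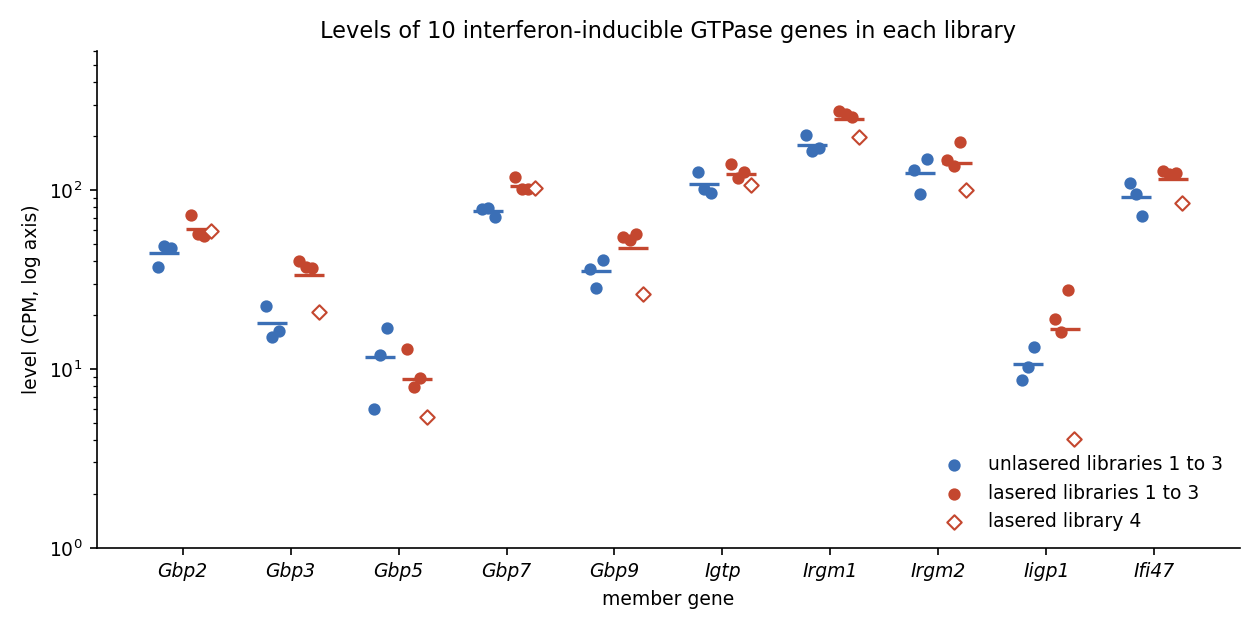
Level of each of the 10 GTPase genes in CPM (log axis) in the 3 unlasered (blue) and 4 lasered (red) libraries, with the open diamond for lasered library 4 and a bar for each group mean. Gbp2 and Gbp7 are higher in all 4 lasered libraries than in any unlasered one, and lasered library 4 is the lowest lasered library for 8 genes.

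Among the GBPs, Gbp7, which has been linked to the assembly of the NADPH oxidase on pathogen vacuoles, was measured at 78.4, 79.8 and 70.8 CPM in unlasered libraries 1, 2 and 3 and at 118, 102, 101 and 102 CPM in lasered libraries 1 to 4. All lasered libraries lay above all unlasered ones. The difference on the log2(CPM + 1) scale was 0.46 (95% interval 0.19 to 0.74) and just missed the threshold of 0.05 after adjustment over the 17496 genes tested (adjusted p = 0.0518 from limma). Gbp2, a GBP that is anchored in membranes by a lipid tail and gathers on parasite vacuoles, had 37.0, 48.4 and 47.2 CPM without laser and 72.2, 56.5, 55.0 and 58.9 CPM after laser. Its groups did not overlap either, with a difference of 0.45 (0.09 to 0.80, adjusted p = 0.126 from limma).

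Gbp3 had the largest difference of the 10 genes. It was measured at 22.4, 15.1 and 16.4 CPM in the unlasered libraries and at 39.9, 37.0, 36.4 and 20.8 CPM in the lasered ones. Lasered libraries 1 to 3 lay well above the unlasered range, and lasered library 4 lay within it. The difference was 0.84 (0.29 to 1.40, adjusted p = 0.0759 from limma) with all 7 libraries and 1.05 (adjusted p = 0.0259 from limma) without lasered library 4. Gbp9 was likewise above the unlasered range in lasered libraries 1 to 3, with 36.2, 28.2 and 40.7 CPM without laser and 54.7, 52.7, 57.0 and 26.1 CPM after laser, where library 4 was the lowest of all 7. Its difference was 0.39 (-0.23 to 1.00, adjusted p = 0.452 from limma), and 0.65 (adjusted p = 0.0749 from limma) without that library. Gbp5, known as a promoter of inflammasome assembly, was the only member with a negative difference over all 7 libraries. It was measured at 5.97, 11.9 and 16.9 CPM in the unlasered and at 12.8, 7.93, 8.95 and 5.41 CPM in the lasered libraries, and the groups overlapped widely (-0.32, -1.11 to 0.48, adjusted p = 0.653 from limma). Gbp5 thus lies next to Gbp7 on chromosome 3 but showed another order of the libraries; the difference between these genes was not tested.

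Of the regulatory IRGs, Irgm1 had 203, 164 and 171 CPM without laser and 276, 266, 256 and 197 CPM after laser. Lasered libraries 1 to 3 were above the unlasered range, while library 4 was below unlasered library 1. The difference was 0.46 (0.13 to 0.80, adjusted p = 0.102 from limma). Igtp was measured at 126, 101 and 96.4 CPM in the unlasered and at 140.0, 117, 127 and 107 CPM in the lasered libraries, a difference of 0.19 (-0.14 to 0.52, adjusted p = 0.489 from limma). Irgm2 had 130.0, 94.6 and 149 CPM without and 146, 137, 184 and 99.9 CPM with laser, a difference of 0.18 (-0.33 to 0.68, adjusted p = 0.697 from limma). The groups overlapped for both genes, and the intervals include 0. The difference of Irgm2 was -0.01 without unlasered library 2, so that its direction rested on that library.

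Of the effector IRGs, Ifi47 was measured at 109, 95.1 and 71.4 CPM in the unlasered and at 128, 122, 125 and 84.2 CPM in the lasered libraries. The difference was 0.32 (-0.12 to 0.76, adjusted p = 0.376 from limma). Iigp1, which builds the coat that disrupts parasite vacuoles, varied most among the lasered libraries. It had 8.62, 10.3 and 13.2 CPM without laser and 19.0, 16.0, 27.5 and 4.07 CPM after laser, so that lasered library 4 was below every other library and the remaining 3 were above all unlasered ones. The coefficient of variation was 58.3% among the lasered libraries, compared with 7.51% for Gbp7. The difference was 0.37 (-0.77 to 1.50, adjusted p = 0.726 from limma), and 0.88 (adjusted p = 0.0861 from limma) without lasered library 4.

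In the limma fit none of the 10 members passed the adjusted threshold, with 6.93% of all tested genes called in either direction (1213 of 17496) and 3.86% called higher. An unadjusted p under 0.05 from limma was reached by 4 members, Gbp2, Gbp3, Gbp7 and Irgm1, all higher after laser. The share over all genes was 11% higher and 22.7% in either direction. With the recovered reads, the quasi-likelihood test of edgeR also called no member (7.33% of all genes called), whereas DESeq2 called Gbp3 (adjusted p = 0.00667), Gbp7 (adjusted p = 0.00558) and Irgm1 (adjusted p = 0.0309), all higher after laser, with 6.73% of all genes called higher by DESeq2. The same 3 genes passed in limma after median-of-ratios scaling (adjusted p = 0.0400, 0.0298 and 0.0421 for Gbp3, Gbp7 and Irgm1), where 5.32% of all genes were called higher. The difference was above 0 for 9 of 10 members, compared with 48.4% of all genes, and the median over the members was 0.38, compared with -0.01 over all genes. The groups were apart, with all lasered libraries higher, for Gbp2 and Gbp7, 2 of 10 members, compared with 10.4% of all genes. In bulk samples a changed share of cells and a changed RNA level per cell cannot be told apart.

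**Figure D3:**
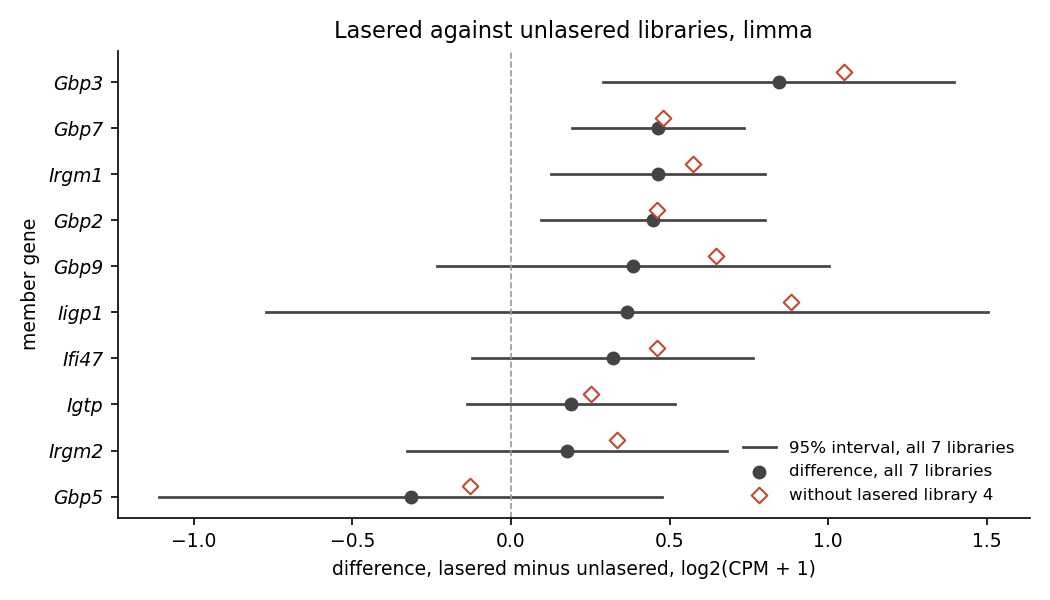
Difference between lasered and unlasered libraries for each member on the log2(CPM + 1) scale, with the limma estimate and its 95% interval over all 7 libraries (dots and lines) and the estimate without lasered library 4 (open diamonds). The intervals of Gbp2, Gbp3, Gbp7 and Irgm1 lie above 0, Gbp5 alone is below 0, and Iigp1 and Gbp9 move furthest when library 4 is left out.

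Lasered library 4 was the lowest of the lasered libraries for 8 of the 10 members, all but Gbp2 and Gbp7, compared with 36.4% of all tested genes. It fell inside the unlasered range for 5 members and below it for 3, Gbp5, Gbp9 and Iigp1. In the other lasered libraries, by contrast, all 3 values lay above the unlasered range for 7 members, all but Gbp5, Igtp and Irgm2, compared with 14.3% of all tested genes. These libraries were set apart after the values were seen. Without library 4 the median difference of the members was 0.47, and Gbp3 alone passed the adjusted threshold, with 3.1% of all genes called higher. The same library was set apart in other genes. Apoe, the most abundant of the marker genes measured, was at 72349.6 CPM in lasered library 4, within the unlasered range of 51588 to 76428 CPM, compared with 29049 to 46438 CPM in lasered libraries 1 to 3. The part of library composition in the values of the members was not tested. With totals taken without Apoe and the rod photoreceptor genes, the median difference of the members was 0.33 and again none passed, with 6.76% of all genes called.

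**Figure D4:**
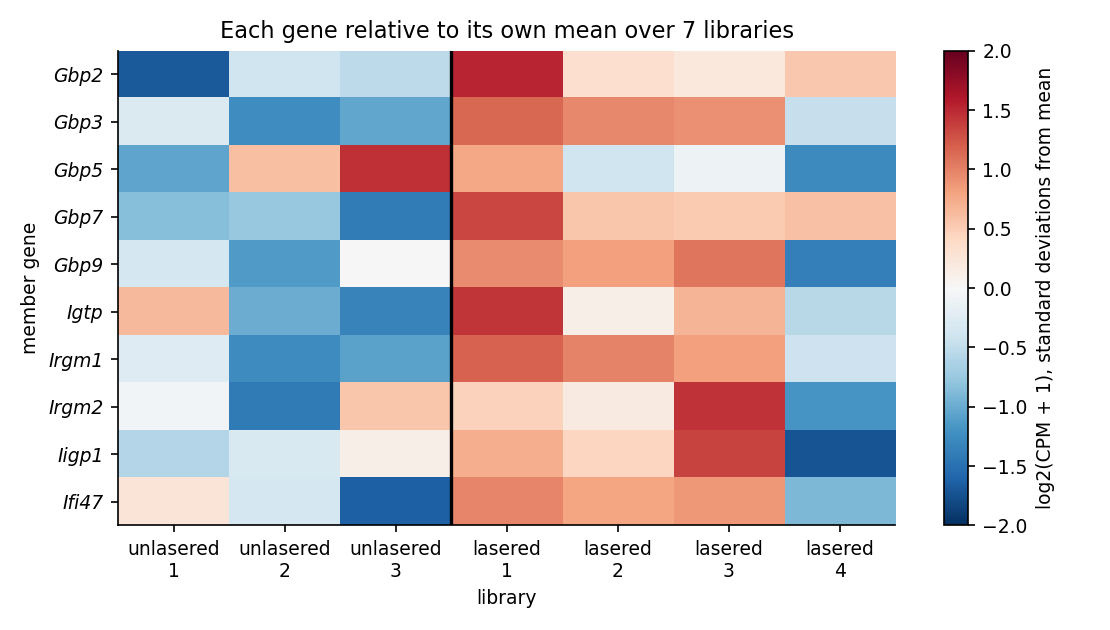
Each member's log2(CPM + 1) in the 7 libraries, as standard deviations from its own mean (red above, blue below), with the unlasered libraries left of the black line. Lasered libraries 1 to 3 are mostly red and lasered library 4 is blue for all members but Gbp2 and Gbp7, and the row of Gbp5 runs differently from the others.

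The members varied together across the libraries to different degrees. Over the 45 pairs of members, the median Pearson correlation across the 7 libraries was 0.59, and all libraries share their depth and composition among all genes. Gbp3 and Irgm1, on different chromosomes, were the most alike pair (r = 0.999). Gbp5 and Gbp7, which lie side by side, were the least alike (r = -0.26), and the median correlation of Gbp5 with the other members was -0.16. As the points fall into a lasered and an unlasered group, these values describe the 7 libraries and carry no test. The genes outside the list whose pattern was most like the mean pattern of the members, among 10279 genes with a mean of at least 10 CPM, were Spopl (r = 0.987), Tfec (0.986), Cpne3 (0.983), Dhx58os (0.979), Ifi214 (0.975), C6 (0.967), Mndal (0.965), Ube2r2 (0.963), Cmpk2 (0.962) and Ifi213 (0.961), each over 7 libraries. Ifi214, Mndal and Ifi213 belong to one family of interferon-inducible genes, and Cmpk2 was also on the list of type I interferon targets. Mndal, for example, had a mean of 80.7 CPM without and of 111 CPM with laser, and none of these 10 genes passed the adjusted threshold in limma.

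The remaining genes of the families were looked up as well. Of 21 further GBP, IRG and giant GTPase (GVIN) genes, 17 were listed and 12 passed the filter of 1 CPM in 3 libraries. None of the 12 was called by limma, edgeR or DESeq2, 1 had an unadjusted p under 0.05 in limma, 9 had a positive difference, and their median was 0.36. That gene was Gm12250, an IRG-like locus next to Igtp. GENCODE M21 lists it as a processed pseudogene, and whether it codes for a protein was not examined. Gm12250 had 36.5, 38.5 and 28.5 CPM without laser and 42.1, 52.9, 44.4 and 41.3 CPM after laser. Its groups did not overlap (0.38, 0.03 to 0.74, adjusted p = 0.191 from limma). Gvin1, a giant GTPase, had 14.5, 16.6 and 59.0 CPM in the unlasered and 76.0, 70.2, 42.6 and 29.3 CPM in the lasered libraries, so that unlasered library 3 lay among the lasered values (1.03, -0.07 to 2.13, adjusted p = 0.250 from limma). Without that library, 2 genes of the list passed, and Gvin1 was one of them (1.65, adjusted p = 0.0396 from limma). Gbp8, which shares reads with Gbp9, was at 11.2, 20.3 and 14.0 CPM without and at 22.9, 28.9, 27.8 and 13.4 CPM with laser, again with lasered library 4 within the unlasered range (0.57, -0.09 to 1.22, adjusted p = 0.286 from limma). Gbp2b, Gbp6, Tgtp1, Gm4841 and Irgc1 did not pass the filter.

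The interferon gamma pathway was then followed from ligand to targets. Genes of the type I interferons themselves were not looked up. Ifng, the gene of interferon gamma itself, had 2 reads in unlasered library 1, 1 read each in lasered libraries 1, 2 and 3 and none in the other 3 libraries, which is at or under the limit of 3 reads. Its receptor genes were expressed throughout, with Ifngr1 at 1442, 1261 and 1248 CPM without and at 1047, 1179, 1333 and 1431 CPM with laser. Of 15 genes of interferon gamma signalling 14 were tested, 1 was called higher and none lower, and the median difference was 0.12. The called gene was Socs3, an inhibitor of JAK kinases, with 68.4, 59.9 and 92.3 CPM in the unlasered and 164, 166, 126 and 134 CPM in the lasered libraries (1.01, 0.61 to 1.41, adjusted p = 0.0160 from limma). Its groups did not overlap, but without lasered library 2 it missed the threshold (adjusted p = 0.0562 from limma). Irf1, a factor that binds the ISRE, was lower in all lasered libraries (119, 118, 132 and 127 CPM) than in the unlasered ones (172, 172 and 151 CPM), with a difference of -0.41 (-0.67 to -0.15, adjusted p = 0.0661 from limma). Without unlasered library 3, Irf1 passed (adjusted p = 0.0387 from limma), as it did in DESeq2 (adjusted p = 0.0283).

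Other targets of interferon gamma include genes of antigen presentation, chemokines and enzymes of macrophage activation. Of 25 such genes 20 were tested, 3 were called higher and none lower, 18 had a positive difference, and the median was 0.39. Those called were Tap1, which carries peptides into the endoplasmic reticulum (53.4 ± 13.1 CPM, SD, n = 3, without and 104 ± 16.3 CPM, SD, n = 4, with laser), and the MHC class I genes H2-K1 (774 ± 66.7 and 1360.2 ± 312 CPM) and H2-D1 (1335 ± 160.3 and 2322 ± 421 CPM). Their differences were 0.97, 0.79 and 0.79 (adjusted p = 0.0245, 0.0346 and 0.0226 from limma). None of the 3 held its call without unlasered library 2 or without lasered library 2, and 1 held it without unlasered library 1, lasered library 1 or lasered library 3.

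The largest number of calls among these lists was in genes known above all as targets of type I interferon. Of 29 such genes, all of them tested, 12 rose, none fell, all 29 had a positive difference, and the median was 0.86. Irf7, which amplifies type I interferon, rose from 70.9, 85.5 and 74.1 CPM to 337, 316, 239 and 206 CPM (1.80, 1.38 to 2.22, adjusted p = 0.00265 from limma). Ifi27l2a (1.93), Oas3 (1.90) and Zbp1 (1.48), a sensor of nucleic acids, rose as well (adjusted p = 0.0168, 0.0298 and 0.0147 from limma), together with Ifit1, Ifit3, Ifit3b, Rsad2, Oasl1, Oas1a, Xaf1 and Ifih1. The count depended on single libraries, as did the share of all genes called, which was 6.93% with all 7 libraries. Of the targets 1 was called without lasered library 2 (1.53% of all genes) and 3 without lasered library 1 (2.42%). The count was 5 without lasered library 3 (2.52%) and 6 without unlasered library 2 (3.87%). Lasered library 4 was the lowest lasered library for 27 of the 29 genes, compared with 36.4% of all genes. Without it 18 were called, with 4.59% of all genes called. Library 4 was thus the lowest lasered library for most members and most of these targets. All lasered libraries, library 4 included, lay above the unlasered range for 16 of the 29 targets and 2 of the 10 members, compared with 10.4% of all genes. The median difference was 0.38 for the members, 0.36 for the other GBP, IRG and GVIN genes, 0.39 for the interferon gamma targets and 0.12 for interferon gamma signalling. The lists were chosen with results of these samples known, and differences between lists were not tested.

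**Figure D5:**
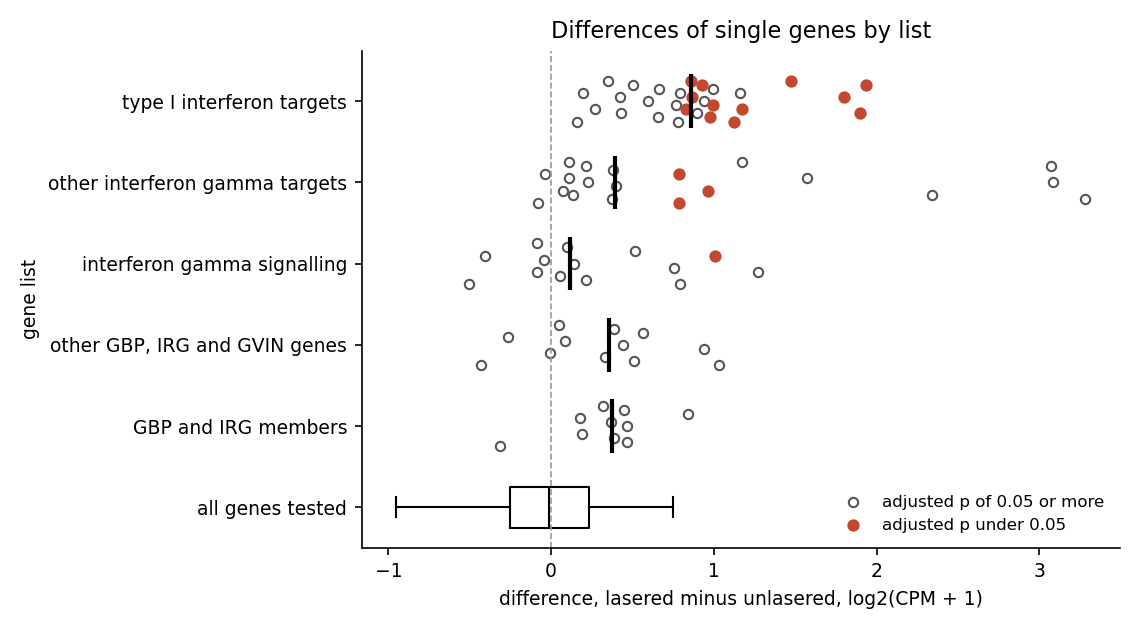
Difference between lasered and unlasered libraries on the log2(CPM + 1) scale for each tested gene of 5 lists (points, filled where the limma adjusted p is under 0.05) with the list median (black bar), above a box of all 17496 genes tested (quartiles and median, whiskers from the 5th to the 95th percentile). The members and the other GBP, IRG and GVIN genes have no filled point and medians of 0.38 and 0.36, and the type I interferon targets have 12 filled points and a median of 0.86.

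Proteins that work with GBPs and IRGs were compared in 3 groups. The autophagy and ubiquitin genes that target these GTPases to vacuoles were 16, of which limma called none, 3 had an unadjusted p under 0.05 and 8 had a positive difference, with a median of -0.01. DESeq2 called 2 and edgeR 1 of them. Of 10 inflammasome genes, which act downstream of GBPs, 1 was called, Pycard, the adaptor that links sensors to caspase-1. It rose from 57.2, 49.6 and 49.5 CPM to 83.9, 83.6, 78.1 and 68.5 CPM (0.58, 0.28 to 0.88, adjusted p = 0.0360 from limma), but lost the call when any one library other than lasered library 4 was left out. Gsdmd, the pore-forming target of the caspases, was higher in all lasered libraries (73.2, 82.7, 82.1 and 76.2 CPM) than in the unlasered ones (57.9, 64.0 and 49.2 CPM), with a difference of 0.46 (0.16 to 0.76, adjusted p = 0.0765 from limma). The 5 genes of enzymes that attach the lipid tail of proteins such as Gbp2 and Gbp5 or process their ends afterwards all had a negative difference, with a median of -0.43. None of them was called by limma or edgeR, 2 had an unadjusted p under 0.05, and DESeq2 called 1.

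Markers of other cells were set beside these results, since lymphocytes make interferon gamma and invading myeloid cells carry GTPases of their own. The microglia marker Tmem119 was high in every library (1175 to 1232 CPM without and 1189 to 1739 CPM with laser), while Sall1 did not exceed 1.36 CPM in any. Of 9 tested microglia markers 6 had a negative difference. None was called by limma, DESeq2 called 1, and the 3 with an unadjusted p under 0.05 were all lower after laser, namely P2ry12 (-0.69, groups apart), Gpr34 (-0.46) and Siglech (-0.39). The 16 genes of the T and NK cell list summed to 3.78 to 8.66 CPM in the unlasered libraries, and after laser to 9.90 (library 1), 16.3 (library 2), 2.22 (library 3) and 3.26 CPM (library 4). The T cell marker Cd3e had 0 to 2 reads in every library, and Gzmb and Nkg7 were at 0 in all but lasered libraries 1 and 2. Of this list 2 genes passed the filter, neither was called by limma, and their groups were apart in opposite directions. Klrb1c had 0.832, 1.26 and 0.305 CPM without and 1.40, 2.695, 1.59 and 1.59 CPM with laser. Skap1, the largest part of each unlasered sum, had 5.29, 1.55 and 2.33 CPM without and 0.861, 1.00, 0.479 and 0.646 CPM with laser. The T and NK cell sum was the lowest in lasered library 3, where Klrb1c lay above its unlasered range. In that library 9 of the 10 members, all but Gbp5, were above their unlasered range, compared with 24.9% of all tested genes. The 10 monocyte and neutrophil markers summed to 22.0 to 74.3 CPM in the unlasered and to 146, 193, 33.3 and 12 CPM after laser, and the 10 dendritic cell markers to 25.3 to 51.0 CPM and to 168, 216, 61.0 and 38.2 CPM. The monocyte and neutrophil sum was below the unlasered range in lasered library 4 and within it in library 3, and the dendritic cell sum was within the unlasered range in library 4. Among the members, Gbp2 and Gbp7 were above their unlasered range in library 4. The other 8 members had their lowest lasered value in that library, 5 of them inside and 3 below their unlasered range. Lasered libraries 3 and 4 were set beside the marker sums after the values were seen. No monocyte or neutrophil marker was called by limma, while 1 had an unadjusted p under 0.05 and 1 was called by DESeq2. Of the dendritic cell markers 1 was called by limma, the chemokine gene Ccl22, with at most 0.196 CPM without laser and 3.53 to 36.4 CPM after it (adjusted p = 0.0132). Of 7 tested border macrophage markers 3 had a positive difference, and the differences ran from -0.89 to 1.06. Pf4 and Ms4a7 were called lower (-0.89 and -0.81, adjusted p = 0.0285 and 0.0470 from limma). Neither held its call without unlasered library 2 or without lasered library 1, 2 or 3. The 15 rod photoreceptor genes summed to 2276, 20412 and 5804 CPM without laser and to 1011, 454, 823 and 329 CPM after it, and 14 of them were called lower, 4 without lasered library 2 and 8 without lasered library 3. No endothelial or Müller glia marker was called by limma, edgeR or DESeq2, and 1 had an unadjusted p under 0.05 in limma. The part of these cells in the levels of the members was not tested.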

How the data were processed

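RNA-seq values of 7 libraries were analysed. Per the methods, the authors removed adapters and duplicate reads (cutadapt, FastUniq), mapped to GRCm38 with Bowtie2, which does not split reads across introns, and counted genes of annotation version 90 with HTSeq. The deposited values are headed TPM but are CPM: each library sums to 1000000 and 100% of its values are whole multiples of 1 read (within 0.05 reads), so gene length is not corrected for. The processing notes also name FastQC and DESeq2. Of 40743 genes, 4492 include reads listed jointly with another gene and 2335 only such reads.

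The 17496 genes that reached 1 CPM in 3 or more libraries were tested with limma 3.58.1 (trend and robust) on log2(CPM + 1), two-sided, with Benjamini-Hochberg adjustment over all of them and a threshold of 0.05. A fold change on this scale understates that of low genes. Alternatives were another pseudocount (0.1), other filters, the replicate number as a block, median-of-ratios scaling, edgeR 4.0.16 and DESeq2 1.42.0 on recovered reads, each library left out and, added after seeing the data, totals without Apoe and rod genes. The fit was tested on simulated data. GENCODE M21 matched 99.8% of genes. The floor of 3 reads equals 0.0653 to 0.147 CPM and covers counting error only.

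The members and lists were chosen with earlier results of these data known. Named were all members, family and signalling genes whose mean reached 1 CPM in either group, genes of other lists that passed or had the 3 highest means, and the 10 genes most like the members. The markers Tmem119, P2ry12, Gpr34, Siglech, Sall1, Cd3e, Gzmb and Nkg7 were named outside this rule, some after their values were seen. R 4.3.3 and Python 3.11.15 were used.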

Additional observations from a re-analysis of the deposited data

Results flagged for a closer look

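For each member the 4 lasered libraries were searched for a value far from the other 3 (Dixon's test at the 95% level), which chance alone flags in about 1 in 20 groups, and 3 of the 10 genes had one. Gbp7 was far higher in lasered library 1, at 118 CPM, than in the next library, at 102 CPM. Gbp9 was far lower in lasered library 4, at 26.1 CPM, than in the next library, at 52.7 CPM. Ifi47 was far lower in the same library, at 84.2 CPM, than in the next, at 122 CPM. The groups of 3 unlasered libraries were not searched. All values of Gbp9 and Ifi47 are reads listed jointly with a neighbouring gene.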

How the results depend on the processing

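Of 150 differences of members under 15 alternatives, 142 kept their direction and their side of the threshold, 7 newly passed it and 1 reversed, Irgm2 without unlasered library 2 (-0.0079, in a range of -0.0079 to 0.33 over the libraries left out). The median of the libraries was also taken for 20 levels. A median always lies within an SD of the mean, so this comparison cannot show whether the levels are stable. The members called numbered 3 with median-of-ratios scaling and 3 with DESeq2, and 0 to 1 with a library left out. Of all genes, 385 (212 higher, 173 lower) were called without a filter, 882 with at least 5 CPM (287 lower), 2318 by DESeq2 (1177 higher, 1141 lower) and 264 to 1248 with a library left out, compared with 1213. The cause was not tested.

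Calls in the other lists moved as well. Without a filter, 5 type I interferon targets, 0 interferon gamma targets and 0 inflammasome genes were called. DESeq2 called 19, 7 and 2 of them and 3 interferon gamma signalling genes, of which the stricter filter, median-of-ratios scaling and edgeR each called 2. With a library left out, the called type I targets numbered 1 to 18, interferon gamma targets 0 to 4, signalling genes 0 to 3, inflammasome genes 0 to 1 and other GBP, IRG and GVIN genes 0 to 2.

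The shared replicate numbers gave no sign of pairing, and the libraries were treated as unpaired. Deviations from the group means correlated at -0.18, -0.13 and -0.02 between same-numbered libraries and at -0.11 to 0.21 between the others. With groups this small, such correlations cannot exclude a shared experiment. With the number as a replicate block, where lasered library 4 has no counterpart, 3 genes were called (2 higher, 1 lower), and 0 members, 0 type I targets, 0 interferon gamma targets, 0 signalling and 0 inflammasome genes.

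Each value rests on 3 or 4 pools of mice. Joint and shared reads limit Gbp9, Ifi47, Igtp, Irgm2 and Gbp7, and counts per gene show neither isoforms nor which Irf8 exons were read. The lowest count of a member was 122 reads.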

Other observations

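The MHC class II genes, targets of interferon gamma that dendritic cells and activated microglia carry, were named after their values were seen. H2-Ab1 was measured at 32.9, 9.49 and 79.4 CPM without laser and at 858, 1497, 114 and 28.6 CPM after it, so that lasered libraries 1 and 2 stood far above all others and library 4 lay within the unlasered range. Cd74, the chaperone of class II molecules, ran alike, with 124, 43.8 and 245 CPM without and 1808, 2989, 252 and 72.8 CPM with laser. Ciita, the activator of class II genes, was at 1.32, 0.934 and 0.472 CPM without and at 8.93, 14.3, 1.79 and 0 CPM with laser. The adjusted p-values from limma were 0.196 for H2-Ab1, 0.286 for Cd74 and 0.396 for Ciita.

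Cxcl10, a chemokine that interferons induce, was higher in all lasered libraries (3.87, 6.50, 22.6 and 10.1 CPM) than in the unlasered ones (2.25, 2.02 and 2.78 CPM), with the highest value in lasered library 3 (1.57, adjusted p = 0.0759 from limma). It was also named after its values were seen.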
